A study of Mus musculus with 753 samples.

Results

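*Gata6*lin+ keratinocytes of healing wounds at day 11 were compared with those at day 9. They are the cells that carried tdTomato at the sort and that the deposited annotation places at these days, 165 of the 684 annotated cells of the series. They form 4 sets, 32 and 47 cells at day 11 in replicates 1 and 2, and 42 and 44 cells at day 9 in replicates 1 and 2. By the study's methods each set is 1 mouse. All cells came from Gata6EFGPCreERT2 Rosa26-fl/STOP/fl-tdTomato mice, Cre (+/-) tdTomato (+/-), young adults of both sexes, treated topically with 4-hydroxytamoxifen before a full-thickness back wound. The drug lets the Cre of *Gata6*-expressing cells remove the stop in front of tdTomato, so that these cells and their progeny stay red. lin- cells (tdTomato-negative) of the same days, 145 cells in 4 sets, had the same genotype and treatment and serve as the second lineage. The sort left out CD45-positive and GFP-positive cells and gated on surface integrin alpha 6. Libraries were made by Smart-seq2, a plate protocol that covers whole transcripts and has no molecular identifiers.

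GATA6 is a transcription factor found in the sebaceous duct and the upper part of the hair follicle. In unwounded skin these cells line the canal that carries sebum to the surface and mature into short-lived differentiated cells. After wounding, their progeny move into the interfollicular epidermis (IFE), where basal cells divide and their daughters stop dividing, exchange keratins 5 and 14 for keratins 1 and 10, and build the cornified envelope, a protein shell cross-linked under the membrane. Once a wound is covered, the thickened new epidermis thins and matures.

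The cells had the transcripts of keratinocytes. At least 2 of 8 keratinocyte genes (*Krt5*, *Krt14*, *Perp* and others) had reads in all 32 and 47 cells at day 11 and in all 42 and 44 cells at day 9. Reads of *Gata6* itself were found in 5 of 32 and 11 of 47 cells at day 11, against 9 of 42 and 10 of 44 at day 9. Its level was 14.2 and 17.7 CPM at day 11, against 9.92 and 26.9 CPM at day 9. In the 4 lin- sets of these days it was 0.00196 to 4.73 CPM. CPM here is the deposited value of a gene scaled to the total of the cell. That value is a read count in replicate 1. In replicate 2 and at day 6 it is RPKM, which is divided by gene length. Levels in CPM can thus be compared within a replicate and not between replicates. Pan-immune markers summed to 13.7 and 91.5 CPM at day 11, against 7.77 and 22.1 CPM at day 9, and fibroblast markers to 132 and 45.3 CPM, against 38.3 and 31.8 CPM. At least 2 pan-immune markers were found in 1 and 1 cells at day 11, against 0 and 1 cells at day 9. Median reads per cell were 4852892 and 2274014 at day 11, against 5614488 and 1806780 at day 9, and median genes per cell 2668 and 3108, against 3080 and 3024. In day 11 replicate 2, 3 cells had under 500000 reads, and in day 9 replicate 1, 1 cell.

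No gene passed the test between days 11 and 9. Of 10644 genes tested with limma on log2(mean CPM of a set + 1), 0 had an adjusted p under 0.05, and the adjusted p was 1 for every gene. At an unadjusted p under 0.05 there were 180 genes (1.69%), 85 higher at day 11 (0.799%) and 95 lower (0.893%), and the smallest p was 0.00233. In the edgeR quasi-likelihood test on recovered reads 0 genes passed (117 at an unadjusted p under 0.05), and DESeq2 called 172. Of these 172, 39 were at an unadjusted p under 0.05 in limma and 165 had reads in under 5 cells of the higher day in at least 1 replicate. The values that follow therefore describe these 4 mice, and no gene named below rose or fell by the test. In bulk means of this kind, fewer cells of a type and less RNA per cell cannot be told apart.

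The replicates shared little of their fold changes. Across the genes tested, the log2 fold change of day 11 over day 9 in replicate 1 and that in replicate 2 had a Pearson r of 0.028 (Spearman rho 0.028, across genes, which are not independent), and 49.7% of genes had the same direction. In both replicates 2578 genes (24.2%) were higher and 2684 (25.2%) lower, and 451 (4.24%) were at least 2-fold higher and 447 (4.2%) at least 2-fold lower. The median standard error of a log2 fold change was 1.22 over all genes tested, 0.58 for the 1376 genes with a mean of 100 to under 1000 CPM and 0.38 for the 112 genes at 1000 CPM or more. Of these 112 genes, 38.4% had a 95% interval within 2-fold in both directions. The 10644 genes had a median log2 fold change of -0.01, against which the lists below are set.

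**Figure D1:**
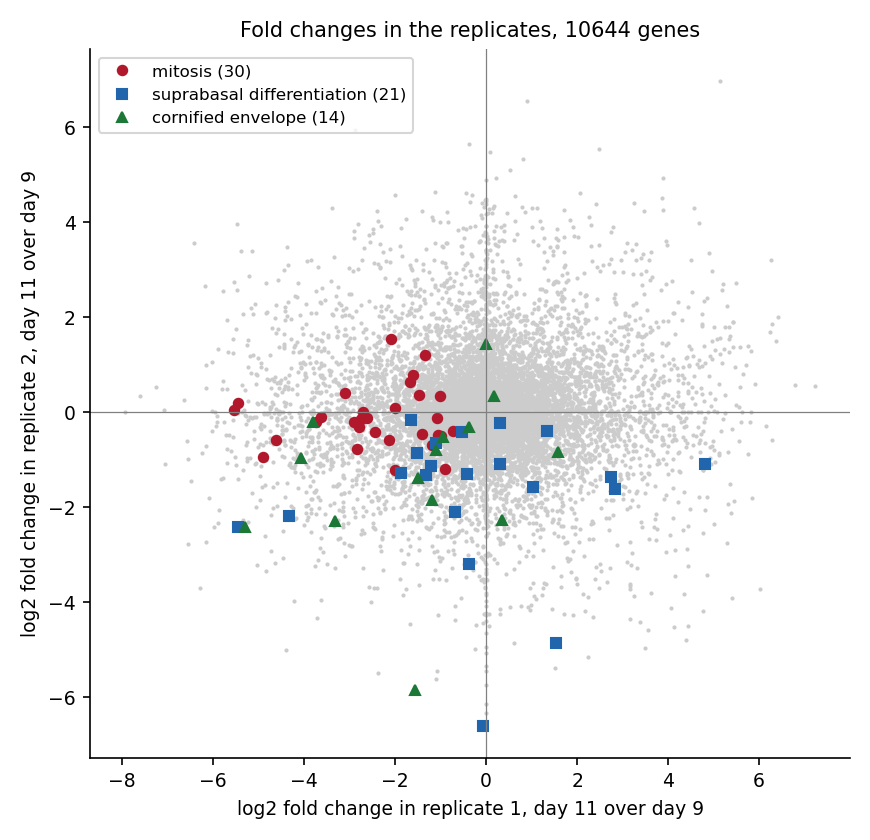
Log2 fold change of day 11 over day 9 in replicate 1 (x axis) and replicate 2 (y axis) for the 10644 genes tested in lin+ cells (grey), with the members of 3 lists coloured. The grey cloud has no slope (r = 0.028), mitosis genes lie left of 0 on the x axis and on both sides of 0 on the y axis, and suprabasal genes lie below 0 on the y axis.

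Most genes of suprabasal differentiation had lower means at day 11 in both replicates. Of 21 members tested, 13 were lower in both replicates and 0 higher in both, where 25.2% and 24.2% of all genes were. At least 2-fold lower in both were 5 (4.2% of all genes). The list's median log2 fold change was -0.91 in the fit, -0.43 in replicate 1 and -1.30 in replicate 2, and -0.09 in lin- cells. Without day 9 replicate 2 it was -0.41. At an unadjusted p under 0.05, 3 members were lower and 0 higher, and 0 passed the adjusted test.

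*Krt10*, the keratin of early suprabasal cells, had 252 and 143 CPM at day 11 in replicates 1 and 2, against 327 and 1322 CPM at day 9. Its log2 fold change was -1.79 ± 0.72 (SE, unadjusted p = 0.029, adjusted p = 1 in limma), and most of it came from replicate 2 (-3.20, against -0.37 in replicate 1). *Sbsn*, a secreted protein of suprabasal cells, was closer between replicates, with 155 and 246 CPM at day 11, against 361 and 538 CPM at day 9 (log2 fold change -1.22 and -1.13). *Krtdap*, a peptide of differentiating keratinocytes, had 500 and 5974 CPM, against 1076 and 9315 CPM. *Hes1*, a target of Notch signalling that maintains early suprabasal cells, had 90.9 and 357 CPM at day 11, against 261 and 650 CPM at day 9 (-1.19 ± 0.48, unadjusted p = 0.029, adjusted p = 1 in limma). For each of these 4 genes both day 11 values lay below the day 9 value of their own replicate. The 12 Notch pathway genes tested, *Hes1* among them, had a median of -0.54. Of these 6 were lower in both replicates and 1 higher in both, where 25.2% and 24.2% of all genes were. *Notch1* had 192 and 5.27 CPM at day 11, against 293 and 12.6 CPM at day 9, and *Jag1*, a ligand, 5.23 and 111 CPM, against 31.3 and 125 CPM.

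The cornified envelope list was lower too. Of its 26 genes 14 were expressed enough to be tested. Of these 10 were lower in both replicates and 1 higher in both, where 25.2% and 24.2% of all genes were. At least 2-fold lower in both were 5 (4.2% of all genes). Its median was -1.20 (-1.14 in replicate 1, -0.90 in replicate 2, and -0.42 in lin- cells). *Ivl*, involucrin, the scaffold of the envelope, had 0.166 and 17.7 CPM at day 11, against 44.9 and 98.8 CPM at day 9. *Evpl*, envoplakin, had 69.1 and 10.1 CPM, against 196 and 27.9 CPM, and *Klk7*, a protease that sheds cornified cells, 269 and 1058 CPM, against 577 and 1835 CPM. *Spink5*, the inhibitor of such proteases, was listed at 0 in day 11 replicate 1 and had 29.4 CPM in replicate 2, against 9.04 and 147 CPM at day 9. Few cells carried these transcripts: *Ivl* had reads in 1 of 32 and 5 of 47 cells at day 11, against 3 of 42 and 9 of 44 at day 9.

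**Figure D2:**
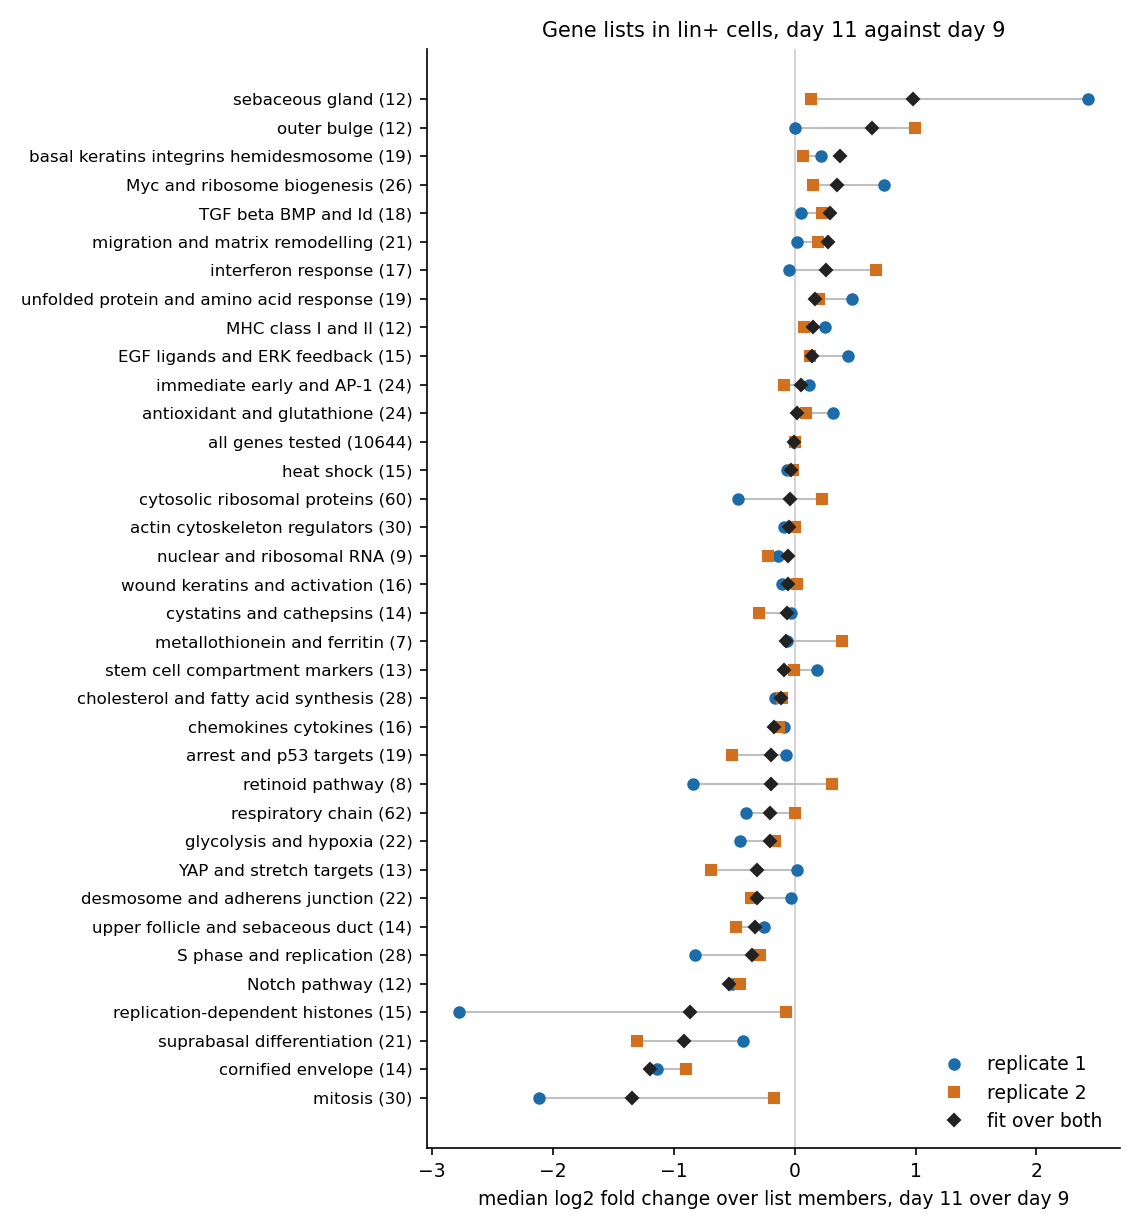
Median log2 fold change of day 11 over day 9 in lin+ cells for each gene list (rows, number of genes tested in brackets), in the fit over both replicates (black), in replicate 1 (blue) and in replicate 2 (orange), with the 10644 genes tested as a row. The cornified envelope, suprabasal and Notch lists lie below 0 in both replicates, while the mitosis, histone and sebaceous gland medians come mainly from replicate 1.

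The deposited identities show which cells carried these genes. The annotation gives the 165 cells 7 identities, named by the study for the IFE (basal IFE-B and differentiated IFE-DI), the outer bulge (OB), the sebaceous gland (SG) and 3 states of the upper hair follicle (uHF-I to uHF-III). Because it was made from the same transcripts, values within an identity are descriptions without a test. In IFE-B cells alone (18 and 24 cells at day 11, against 29 and 17 at day 9) the median of the suprabasal list was 0.00 and that of the cornified list 0.01, where all genes tested had -0.03. These fitted medians average replicates that went opposite ways. Without the scaling between sets, the suprabasal median in IFE-B cells was -0.63 in replicate 1 and 0.81 in replicate 2, and the cornified median -0.22 and 0.43. The suprabasal genes summed to 6092 and 9005 CPM per IFE-B cell at day 11, against 9067 and 6048 CPM at day 9, and the cornified genes to 1255 and 1370 CPM, against 2086 and 444 CPM. In uHF-I cells (6 and 11 cells at day 11, against 8 and 11 at day 9) the suprabasal genes summed to 8985 and 11452 CPM per cell at day 11, against 17691 and 18934 CPM at day 9. The cornified genes summed to 7216 and 4553 CPM in these cells, against 11693 and 17512 CPM. These sums, and the values by identity below, are CPM without the scaling between sets. Of the 21 suprabasal genes 9 were lower in uHF-I cells in both replicates and 2 higher, where 16.9% and 17.9% of all genes tested were. The suprabasal median in uHF-I cells, also without this scaling, was 0 in replicate 1 and -0.77 in replicate 2. The cornified median there was -0.38 and -0.11. In replicate 1 the median suprabasal gene of uHF-I cells thus did not share the fall of the sum. IFE-B cells held 39.8% and 32.0% of the suprabasal list's CPM at day 11, against 52.5% and 9.45% at day 9, and uHF-I cells 19.6% and 18.7%, against 28.3% and 19.1%. The few uHF-III cells, 1 and 5 at day 11, against 2 and 10 at day 9, held 5.43% and 31.0% of it at day 11, against 6.86% and 31.8% at day 9. Of the cornified list's CPM uHF-III cells held 27.1% and 63.5% at day 11, against 11.7% and 70.4% at day 9, and uHF-I cells 39.8% and 17.7%, against 43.6% and 21.8%.

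Upper follicle and sebaceous duct genes are the program from which the lineage started. Of 14 members 7 were lower in both replicates and 3 higher, where 25.2% and 24.2% of all genes were. Their median was -0.33. It was -0.25 in replicate 1 and -0.48 in replicate 2. In the fit without day 9 replicate 2 the median was 0.04. *Krt79*, the keratin of the duct, had 4423 and 1817 CPM at day 11, against 4815 and 4131 CPM at day 9 (-0.65 ± 0.38, unadjusted p = 0.112, adjusted p = 1 in limma). *Cst6*, cystatin M/E, a cysteine protease inhibitor of the follicle canal, had 827 and 5724 CPM, against 8791 and 11905 CPM (-2.23 ± 1.04, unadjusted p = 0.0519, adjusted p = 1 in limma). One cell held 83.5% of the *Cst6* CPM of day 11 replicate 1. *Defb6*, a beta-defensin, had 625 and 4119 CPM, against 913 and 10047 CPM. *Krt17*, a follicle keratin also induced by wounding, was close between the days, with 10719 and 6299 CPM, against 12332 and 7770 CPM. *Lrig1*, a marker of the stem cells of the junctional zone, had 245 and 18.0 CPM at day 11, against 164 and 31.1 CPM at day 9, higher in replicate 1 and lower in replicate 2.

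Within uHF-I cells 6 of the 14 duct genes were lower at day 11 in both replicates and 3 higher, where 16.9% and 17.9% of all genes were. Their medians there were -0.23 and -0.44, without the scaling between sets. The medians of the whole sets above were scaled and are not on the same footing. Without scaling the fitted median of the whole sets was -0.18. A few abundant genes carry the sums that follow. The summed level of the 14 genes was 23687 and 26243 CPM per uHF-I cell at day 11, against 46609 and 45228 CPM at day 9. In IFE-B cells it was 13885 and 8420 CPM at day 11, against 8339 and 7989 CPM at day 9. *Krt79* averaged 6725 and 1804 CPM in uHF-I cells at day 11, against 10820 and 6492 CPM at day 9, and had reads in 5 of 6 and 8 of 11 of these cells, against 8 of 8 and 11 of 11. *Cst6* averaged 164 and 3354 CPM, against 16001 and 8418 CPM, with reads in 1 of 6 and 10 of 11 cells, against 6 of 8 and 10 of 11. *Defb6* averaged 2912 and 8023 CPM, against 3187 and 19793 CPM, so that in replicate 1 the days were close. The opposite order was found for *Fst*, follistatin, a secreted protein that binds activin. In uHF-I cells *Fst* averaged 1077 and 399 CPM at day 11, against 0 and 32.6 CPM at day 9, and had reads in 5 of 6 and 7 of 11 cells, against 0 of 8 and 1 of 11. The gene was singled out within this identity after its values were seen. A count of 0 of 8 cells allows a share of up to 37.5% by 3 counts of the total, for counting error only. In the whole sets *Fst* had 768 and 290 CPM at day 11, against 237 and 174 CPM at day 9 (1.21 ± 0.57, unadjusted p = 0.054, adjusted p = 1 in limma). Reads of it were found in 59.4% and 63.8% of cells at day 11 (exact Clopper-Pearson 95% intervals 40.6% to 76.3% and 48.5% to 77.3%), against 45.2% and 29.5% at day 9 (29.8% to 61.3% and 16.8% to 45.2%). Intervals of this kind cover counting error only.

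**Figure D3:**
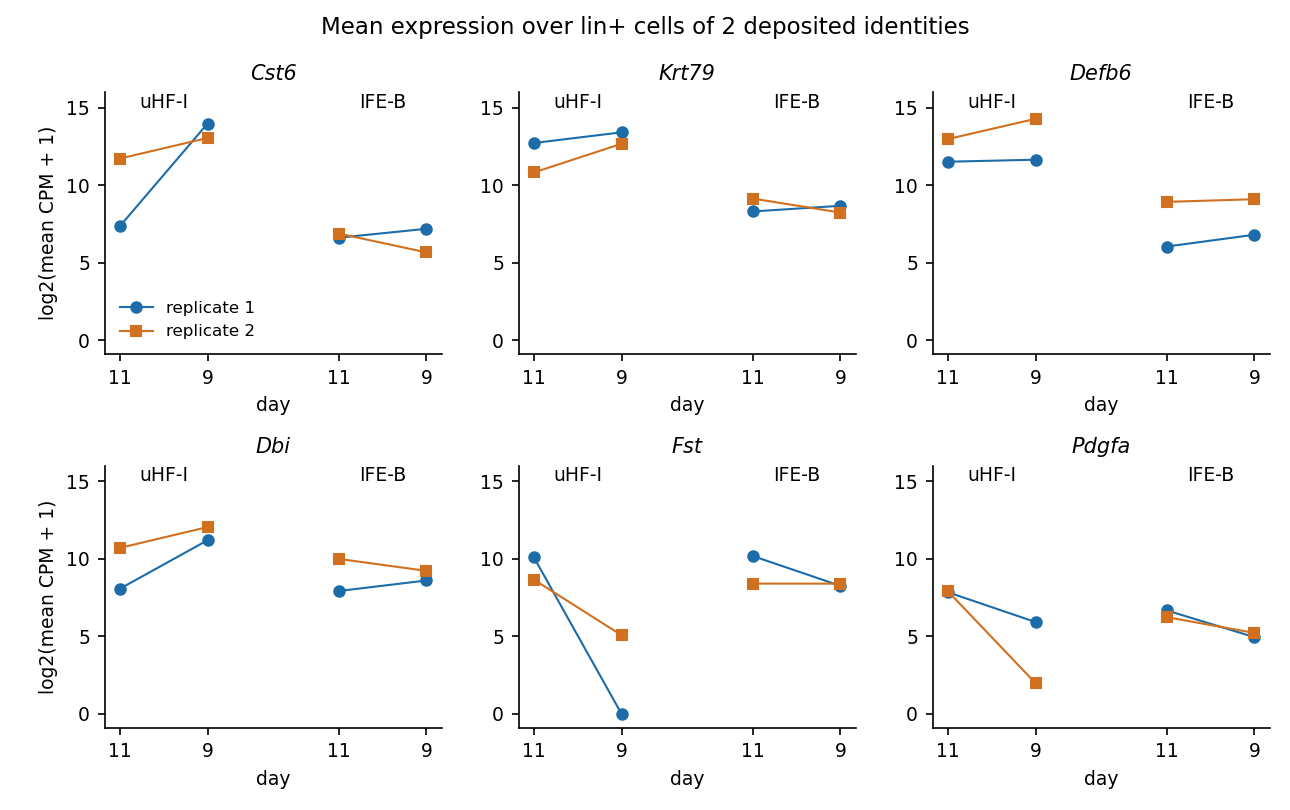
Mean expression, as log2(mean CPM + 1), over lin+ cells with the deposited identity uHF-I (left of each panel; 6 and 11 cells at day 11, 8 and 11 at day 9) and IFE-B (right; 18 and 24 cells at day 11, 29 and 17 at day 9), replicate 1 in blue and replicate 2 in orange. In uHF-I cells *Cst6*, *Krt79* and *Dbi* are lower and *Fst* and *Pdgfa* higher at day 11 in both replicates.

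Mitosis genes had lower means at day 11 as a list, mostly in replicate 1. All 30 members had a negative log2 fold change in the fit, and 20 were lower in both replicates, where 25.2% of all genes were. The median was -1.35 in the fit, -2.12 in replicate 1 and -0.17 in replicate 2, and it was -0.38 without day 11 replicate 1. *Mki67*, the proliferation antigen, had 7.01 and 15.5 CPM at day 11, against 54.9 and 19.5 CPM at day 9. *Top2a*, the topoisomerase that untangles chromosomes, had 7.85 and 52.0 CPM, against 62.4 and 89.2 CPM, and *Ccnb1*, cyclin B1, 7.66 and 56.8 CPM, against 23.2 and 43.9 CPM. The replication-dependent histones, made in S phase, followed the same pattern (median -0.86 over 15 genes, -2.78 in replicate 1 and -0.07 in replicate 2), and 28 S phase genes had a median of -0.35 (-0.83 and -0.28). The mitosis list had a median of -1.30 in lin- cells of the same mice. IFE-B cells held 96.0% and 93.1% of the mitosis CPM at day 11, against 83.1% and 98.3% at day 9. Within them 24 of the 30 genes were lower in both replicates and 0 higher, where 22.3% and 24.7% of all genes were, with medians of -1.62 in replicate 1 and -0.58 in replicate 2. The list summed to 859 and 3096 CPM per IFE-B cell at day 11, against 2126 and 4004 CPM at day 9, so that within this identity both replicates were lower at day 11. Over all cells of a set, after scaling between sets, it summed to 449 and 1588 CPM at day 11, against 1810 and 1586 CPM at day 9. In the whole sets of replicate 2 the days were thus alike.

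Counted per cell, the low value belonged to day 11 replicate 1. After thinning every cell to 500000 reads, cells with reads of at least 10 of the 30 mitosis genes, a limit chosen after the values were seen, were 1 of 32 (3.13%, exact 95% interval 0.079% to 16.2%) and 11 of 44 (25%, 13.2% to 40.3%) at day 11. At day 9 they were 10 of 41 (24.4%, 12.4% to 40.3%) and 9 of 44 (20.5%, 9.8% to 35.3%). All sets but day 11 replicate 1 thus had shares between 20.5% and 25%. Cells with 8 to 11 members, near the limit, numbered 1 and 3 at day 11, against 3 and 0 at day 9. The lin- cells of the same mice were alike, with 1 of 26 and 13 of 45 cells at day 11, against 10 of 27 and 10 of 43 at day 9. Most lin+ cells past the limit were IFE-B, 1 of 1 and 10 of 11 at day 11, against 8 of 10 and 9 of 9 at day 9. In uHF-I 1 such cell was found, at day 9.

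**Figure D4:**
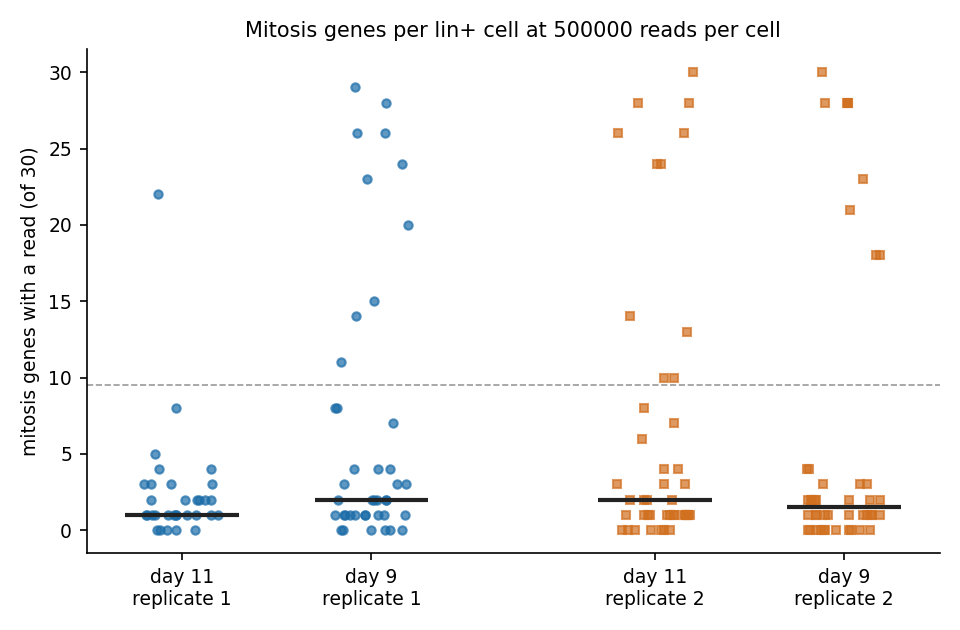
Number of the 30 mitosis genes with at least 1 read (y axis) in each lin+ cell after thinning to 500000 reads, by day and replicate, each point a cell, horizontal jitter added, bars at the median. The dashed line is drawn just under the limit of 10 genes, and at or past the limit lie 1 cell of day 11 replicate 1, 10 of day 9 replicate 1, 11 of day 11 replicate 2 and 9 of day 9 replicate 2.

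Of the 19 basal keratins, integrins and hemidesmosome genes 13 were higher at day 11 in the fit (49.3% of all genes), with a median of 0.37. In both replicates 5 were higher and 3 lower, where 24.2% and 25.2% of all genes were, and the medians were 0.22 in replicate 1 and 0.07 in replicate 2. In uHF-I cells 6 were higher in both replicates and 1 lower (17.9% and 16.9% of all genes), 3 of them at least 2-fold higher (7.49% of all genes), with medians of 0.65 and 0.22. The shares of all genes in either direction are smaller in these few cells than in the whole sets. How far genes without reads lower them was not tested. In IFE-B cells 2 were higher and 3 lower. *Krt14* had 20741 and 5210 CPM at day 11, against 30355 and 5942 CPM at day 9, and *Krt5* 4950 and 1964 CPM, against 6497 and 1496 CPM. The fitted log2 fold change of *Krt5* was 0.00 ± 0.37, with a 95% interval of -0.80 to 0.80. *Col17a1*, the hemidesmosomal collagen, had 870 and 124 CPM, against 578 and 78.1 CPM, and *Itgb1*, integrin beta 1, 46.8 and 61.6 CPM, against 32.1 and 34.0 CPM, both higher in both replicates. The wound keratin *Krt6a* had 409 and 178 CPM at day 11, against 691 and 98.3 CPM at day 9, opposite in the replicates.

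*Myc* and genes of ribosome biogenesis, many of them known MYC targets, had higher means at day 11 more often than lower ones. Of 26 genes 13 were higher in both replicates and 1 lower, where 24.2% and 25.2% of all genes were, and 0 passed the test or an unadjusted p of 0.05. The median was 0.35 (0.74 in replicate 1 and 0.15 in replicate 2) and -0.13 in lin- cells, and it was 0.12 without day 11 replicate 1. *Myc* had 1071 and 325 CPM at day 11, against 539 and 227 CPM at day 9 (0.75 ± 0.91). *Ncl*, nucleolin, had 259 and 113 CPM, against 188 and 72.1 CPM, and *Srm*, spermidine synthase, 348 and 210 CPM, against 187 and 94.6 CPM. By counts of genes both main identities had this order. In uHF-I cells 13 of the 26 were higher in both replicates and 1 lower (17.9% and 16.9% of all genes). Of the 13, 7 were at least 2-fold higher (7.49% of all genes). In IFE-B cells 12 were higher and 1 lower (24.7% and 22.3% of all genes). The medians, without the scaling between sets, were 1.11 and 1.34 in uHF-I cells. In IFE-B cells they were 0.70 in replicate 1 and 0.01 in replicate 2, so that replicate 2 hardly differed between the days there.

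Sebaceous gland genes were higher at day 11 in 11 of 12 tested members (49.3% of all genes), 7 of them in both replicates (24.2% of all genes). Their median was 0.98, with 2.43 in replicate 1 and 0.13 in replicate 2. *Scd1*, the stearoyl-CoA desaturase of sebocytes, had 264 and 87.3 CPM at day 11, against 30.1 and 79.6 CPM at day 9, and *Plin2*, a coat protein of lipid droplets, 486 and 260 CPM, against 86.6 and 162 CPM. SG cells numbered 3 and 2 at day 11, against 0 and 1 at day 9, and held 53.7% and 46.0% of the list's CPM, against 0% and 35.2%. In IFE-B cells alone the median was 0.15. lin- cells had a median of 1.16.

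Of the 12 genes with the lowest unadjusted p among those lower at day 11 in both replicates, with reads in at least 5 day 9 cells of each, *Fam25c* and *Dbi* were abundant and widely read. *Fam25c* (chromosome 14, 34351882 to 34358339, GRCm38) had 344 and 999 CPM at day 11, against 1233 and 1819 CPM at day 9 (-1.35 ± 0.45, unadjusted p = 0.011, adjusted p = 1 in limma). Its reads were in 12 of 32 and 29 of 47 cells at day 11, against 36 of 42 and 33 of 44 at day 9, and after thinning in 34.4% and 63.6%, against 87.8% and 68.2%. *Dbi* (chromosome 1, 120113280 to 120121096), an acyl-CoA-binding protein, had 310 and 1501 CPM, against 865 and 3123 CPM (-1.27 ± 0.42, unadjusted p = 0.0101, adjusted p = 1 in limma). *Lgals3* (chromosome 14, 47373860 to 47386167), galectin-3, named for its difference between the lineages, had 1176 and 1763 CPM, against 2253 and 2779 CPM (-0.80 ± 0.34, unadjusted p = 0.036, adjusted p = 1 in limma). Each of these genes was lower in both replicates. In uHF-I cells *Dbi* averaged 267 and 1653 CPM at day 11, against 2327 and 4192 CPM at day 9, while in IFE-B cells its fitted log2 fold change was -0.03. That of *Lgals3* in IFE-B cells was -0.20 and that of *Fam25c* -0.67. The small heat shock protein gene *Hspb1*, which rises with keratinocyte differentiation, had 898 and 543 CPM at day 11, against 1485 and 1077 CPM at day 9. In uHF-I cells *Hspb1* averaged 1020 and 630 CPM at day 11, against 1055 and 962 CPM at day 9. IFE-B cells did not have this order, with 1183 and 319 CPM at day 11, against 758 and 297 CPM at day 9.

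The other 10 of the 12 were read in fewer cells. *Alcam*, an adhesion molecule, had reads in 0 of 32 and 8 of 47 cells at day 11, against 13 of 42 and 15 of 44 at day 9. *Tsr2*, a chaperone of ribosome assembly, had 2.06 and 4.06 CPM, against 27.4 and 30.8 CPM, in 3 and 3 cells, against 9 and 6. *Tmem125*, *Gramd1a*, *Pacs1*, *Atp13a2*, *Dzip1l*, *Syap1* and *Ube3c* had between 0 and 6.29 CPM in the day 11 sets, apart from 44.6 CPM of *Syap1* in replicate 2. *Pigyl* had 32.4 and 132 CPM, against 281 and 201 CPM. *Ndrg1*, a gene of differentiation and hypoxia, had 3.16 and 7.91 CPM at day 11, against 45.7 and 80.4 CPM at day 9, and 1 cell held all of its reads in day 9 replicate 1. Without the highest cell of each set its log2 fold change was -1.01, where it had been -3.34.

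Of the 12 genes chosen likewise among those higher at day 11, *Pdgfa* (chromosome 5, 138976014 to 139000792), a growth factor that keratinocytes send to fibroblasts, had 97.0 and 106 CPM at day 11, against 32.6 and 14.8 CPM at day 9 (2.15 ± 0.71, unadjusted p = 0.0104, adjusted p = 1 in limma). Reads of it were found in 9 of 32 and 22 of 47 cells at day 11, against 8 of 42 and 10 of 44 at day 9. In lin- cells it had 184 and 159 CPM at day 11, against 64.8 and 77.7 CPM at day 9, so that both lineages were higher at day 11 in both replicates. *Timp3*, an inhibitor of metalloproteinases, had 124 and 149 CPM, against 33.0 and 67.5 CPM (1.50 ± 0.55), and *Cdh13*, T-cadherin, an adhesion molecule of basal cells, 270 and 171 CPM, against 126 and 53.4 CPM (1.38 ± 0.50). *Snai2*, Slug, a repressor active in keratinocyte migration and in basal cells, had 76.5 and 82.7 CPM at day 11, against 13.0 and 35.2 CPM at day 9. *Tapbp*, tapasin, which loads peptides on MHC class I, had 162 and 173 CPM, against 28.6 and 87.5 CPM, and *Nr1d1*, a repressor of the circadian clock, 150 and 41.0 CPM, against 33.9 and 8.66 CPM. The others reported here were *Avpr1a*, *Rn7sk*, *Spred1*, *Wrnip1* and *Smarca2*. One cell held 94.2% of the *Rn7sk* CPM of day 11 replicate 1. *Gjb2*, connexin 26, had 38.3 and 95.2 CPM at day 11, against 0.0719 and 13.8 CPM at day 9, in 4 of 32 and 9 of 47 cells, against 2 of 42 and 3 of 44.

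**Figure D5:**
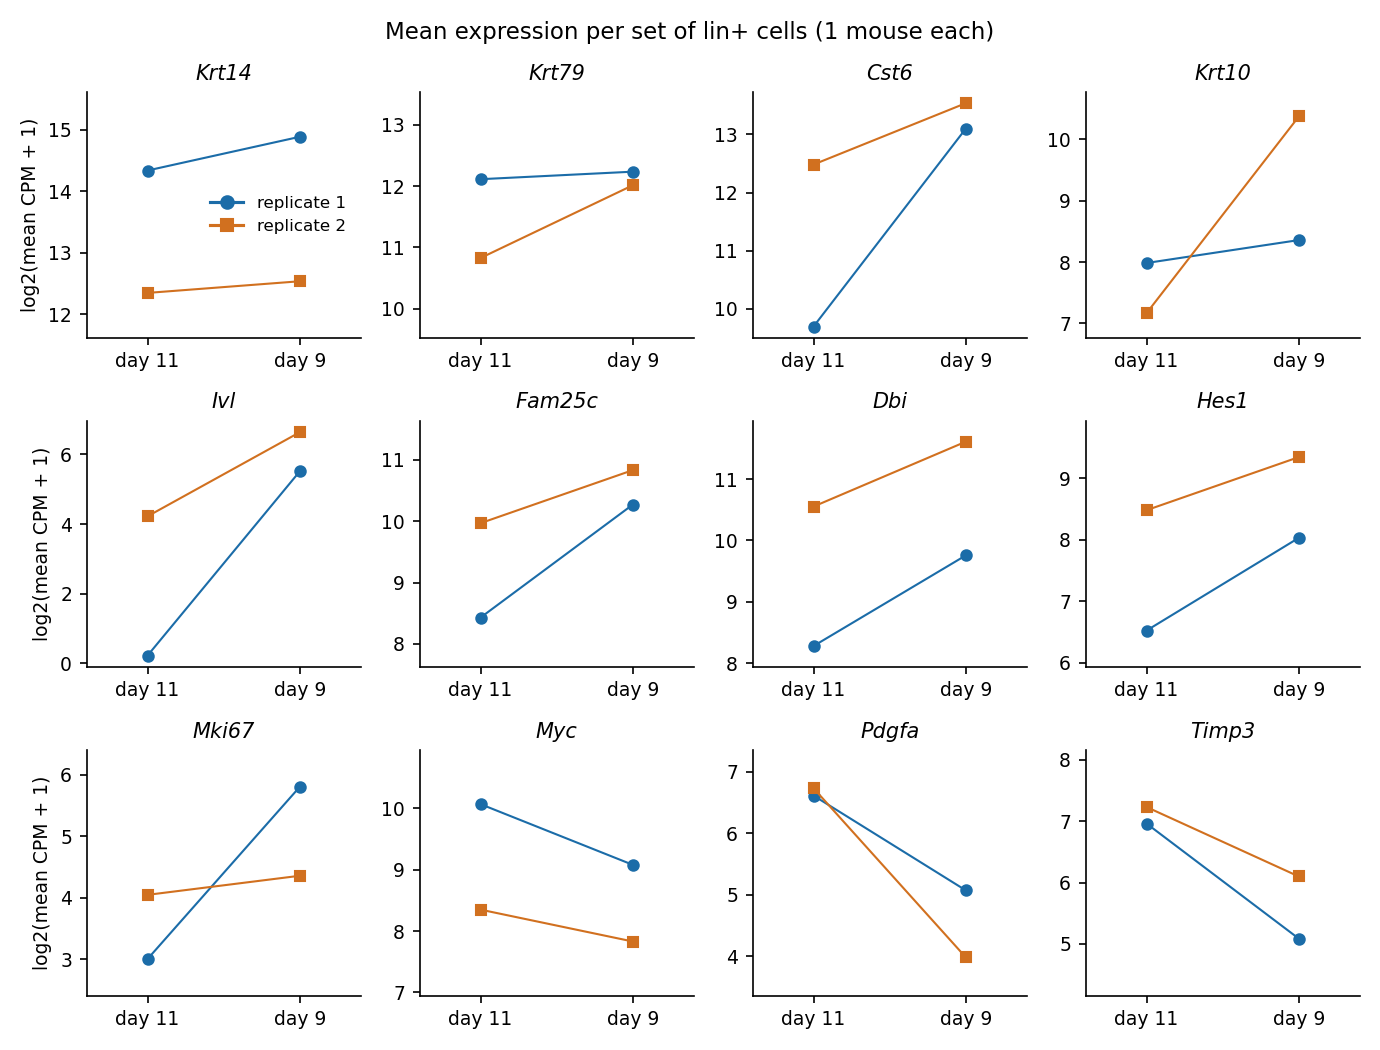
Mean expression of 12 genes, as log2(mean CPM + 1), in the lin+ sets of day 11 (left of each panel) and day 9 (right), replicate 1 in blue and replicate 2 in orange, each point 1 set. The lines run the same way in both replicates in every panel, while their steepness differs most between the replicates for *Ivl*, *Krt10*, *Mki67* and *Cst6*. The 12 genes were picked, so their shared direction is no measure of how well the replicates agree. Of all genes tested 49.7% had the same direction, and *Krt5*, *Krt6a*, *Lrig1* and *Gata6*, not drawn, ran opposite ways.

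MHC class II genes were read in a minority of the cells. *Cd74*, the invariant chain, had 329 and 459 CPM at day 11, against 80.9 and 149 CPM at day 9, in 9 of 32 and 14 of 47 cells, against 7 of 42 and 9 of 44, and 1 cell held 54.3% and 34.1% of it at day 11, against 53.0% and 53.0% at day 9. *H2-Ab1* had 349 and 183 CPM, against 100.0 and 86.0 CPM. The Langerhans cell list summed to 1125 and 1256 CPM at day 11, against 651 and 921 CPM at day 9. A large part of that sum is *Epcam*, which is also among the 8 keratinocyte genes. *Epcam* had 274 and 513 CPM at day 11, against 360 and 619 CPM at day 9, lower at day 11 in both replicates. That sum leaves out *Cd207* and *Ltc4s*, its defining members. These 2 were not among the genes with values in both batches of libraries, so their level was not assessed. Of the 12 MHC genes 6 were higher in both replicates and 4 lower, where 24.2% and 25.2% of all genes were.

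The day 11 over day 9 difference was also set against that of lin- cells, in which 0 of 10644 genes passed (271 at an unadjusted p under 0.05, 2.55%). For the difference between the lineages 0 genes passed in limma (176 at an unadjusted p under 0.05, 1.65%) and in edgeR (164), and 194 in DESeq2. The limma test did not use the pairing of lin+ and lin- sets by mouse. *Lgals3* had opposite directions, with a log2 fold change of -0.80 in lin+ and 0.76 in lin- cells (unadjusted p = 0.0066, adjusted p = 1 in limma). In lin- cells it had 1484 and 1327 CPM at day 11, against 867 and 791 CPM at day 9, so that the lin+ sets were below the lin- set of their mouse in replicate 1 at day 11 and above it in the other 3 pairs. *Fam25c* had -1.35 in lin+ and 0.62 in lin- cells (unadjusted p = 0.0091, adjusted p = 1 in limma), and *Hes1* -1.19 and 0.88 (unadjusted p = 0.01, adjusted p = 1 in limma). *Serpinb2*, a protease inhibitor induced in wounded keratinocytes, had 6.31 and 19.1 CPM in lin+ cells at day 11, against 14.5 and 872 CPM at day 9. The 2 other genes with the lowest p, *Txnl4b* and *Hdac8*, had reads in at most 11 lin+ cells of a set.

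The levels at all days are given for 4 of these genes, with no test, since the replicates were deposited in different units and the labels of day 6 name no replicate. *Fam25c* had 726 and 1068 CPM in unwounded lin+ cells of replicates 1 and 2, 2484 CPM at day 6, 1233 and 1819 CPM at day 9 and 344 and 999 CPM at day 11. *Pdgfa* had 21.3 and 41.6 CPM at day 0, 92.0 CPM at day 6, 32.6 and 14.8 CPM at day 9 and 97.0 and 106 CPM at day 11. *Cst6* was highest unwounded in replicate 1, with 17719 and 7305 CPM at day 0, 6472 CPM at day 6, 8791 and 11905 CPM at day 9 and 827 and 5724 CPM at day 11. *Gata6* had 146 and 27.8 CPM at day 0, 9.96 CPM at day 6, 9.92 and 26.9 CPM at day 9 and 14.2 and 17.7 CPM at day 11.

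The shares of the identities had wide intervals that overlapped within each replicate. IFE-B cells were 56.3% and 51.1% at day 11 (exact 95% intervals 37.7% to 73.6% and 36.1% to 65.9%), against 69.0% and 38.6% at day 9 (52.9% to 82.4% and 24.4% to 54.5%), so that the replicates went opposite ways. uHF-I cells were 18.8% and 23.4% at day 11, against 19.0% and 25.0% at day 9. uHF-III cells were 3.13% and 10.6%, against 4.76% and 22.7%, and SG cells 9.38% and 4.26%, against 0% and 2.27%. For SG, 0 of 42 cells allows a share of up to 7.14% by 3 counts of the total, and the upper exact limit is 8.41%. With 2 mice against 2 an exact permutation test cannot go below a p of 0.33, so none was run on shares.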

How the data were processed

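Single keratinocytes were read by Smart-seq2. Per the labels and methods the authors trimmed reads with Trimmomatic (0.27), aligned them with STAR (2.2) to GRCm38 and assigned them to RefSeq genes with featureCounts. In the deposited table, cells of replicate 1 hold read counts and cells of replicate 2 and day 6 hold RPKM, as their values show. The methods do not name this step. Identities are those of the deposited annotation, made in Seurat (3.2.2), and 1048 per-sample columns elsewhere in the files were left out, as were columns of the authors' own comparisons.

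Each deposited value was scaled to the cell total and averaged over the cells of a set. RPKM was not multiplied by gene length. CPM of replicate 2 and day 6 is therefore relative to gene length, and CPM of replicate 1 is not. The filter at 10 CPM and the added 1 act on both units alike. Sets were scaled within a replicate by the median of ratios. The 10644 of 19639 genes that reached 10 CPM in 2 or more of 14 sets were tested with limma (3.58.1; trend, log2(CPM + 1)), with 1 coefficient per lineage and day and the replicate as block (5 residual degrees of freedom). P-values were adjusted by Benjamini-Hochberg at 0.05. The block follows from the replicates being separate batches of libraries in different units, and deviations of same-numbered sets from their day's mean correlated at 0.477. Recovered reads (99.97% of values within 0.02 of a whole number) served edgeR (4.0.16), DESeq2 (1.42.0) and the thinning of cells to 500000 reads. Scripts were tested on simulated data. Since a day has 2 mice, p-values measure the spread between few animals, and sets count equally whatever their number of cells. The fit had no term for the mouse and treated the 14 sets as independent. Yet lin+ and lin- sets of the same day and replicate came from the same mice. By the study's methods, unwounded skin was taken from mice that also gave wound cells. The 5 residual degrees of freedom therefore count sets and not separate animals. The number of cells in a set limits the precision of each share, and intervals are exact binomial ones. Reads per cell bear on whether a transcript is found, which these intervals do not cover.

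Named genes are 12 in each direction (those past the threshold, else those of lowest p, with a CPM of at least 20 and reads in at least 5 cells of the higher day in each replicate), genes of the study's text, up to 3 of lowest p per list and 5 of lowest p for the lineage difference. One gene that met this rule is not reported here. Members and lists were chosen with earlier results of these data known. Alternatives were other tools, filters, pseudocounts, scalings, choices of cells and sets left out. Leaving out cells under 200 genes or under 500000 reads was chosen after seeing the data.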

Additional observations from a re-analysis of the deposited data

How the results depend on the processing

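The number of genes that passed between days 11 and 9 in lin+ cells stayed at 0 under every alternative that gave a test, with 2 exceptions. Without a filter on low values (19639 genes) 5 passed in lin+ cells (*Carf* and *S100a9* higher, *Fibin*, *Slc2a9* and *9030407P20Rik* lower) and 7 in lin- cells, and DESeq2 on recovered reads called 172 in lin+ cells, 184 in lin- cells and 194 for the difference between the lineages. Without the replicate block 0 genes passed in each of the 3 comparisons, and 87 in lin+ cells were at an unadjusted p under 0.05. Leaving out each lin+ set in turn gave 0 genes each time, and 54 (without day 11 replicate 1) to 408 (without day 11 replicate 2) at an unadjusted p under 0.05. Leaving out a whole replicate left no residual degrees of freedom and gave values only.

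Without the scaling between sets, the median log2 fold change of all genes was 0.12, a shift of 0.129, and 56.2% of genes were higher at day 11, where 49.3% were in the report, and 11 of 179 named genes and 10 of 40 list medians took the other sign. Restricting the sets to IFE-B cells turned 32 named genes and 11 list medians. Leaving out day 9 replicate 2 turned the upper follicle median (0.04). The medians of the mitosis, suprabasal, cornified and *Myc* lists kept their sign in all other settings. *Cd34* had a log2 fold change of 3.17, and 0.87 without cells under 500000 reads. The cause of these shifts was not tested. Genes of 10 to under 100 CPM had a median standard error of 1.13, and those of 1000 CPM or more 0.38. Whether this followed from depth or from the number of cells was not tested.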

Other observations

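Several lists not described above had lower means at day 11 in both replicates more often than higher ones. The respiratory chain had 22 of 62 genes lower in both replicates and 7 higher (all genes 25.2% and 24.2%), with a median log2 fold change of -0.20. Desmosome and adherens junction genes had 11 of 22 lower and 4 higher, and glycolysis and hypoxia genes 12 of 22 lower and 2 higher. *Pkp1*, plakophilin 1 of the desmosome, had 96.0 and 99.8 CPM at day 11, against 245 and 154 CPM at day 9. Of 19 genes of the unfolded protein and amino acid response, 10 were higher in both replicates and 2 lower. Among these *Psat1*, an enzyme of serine synthesis, had 154 and 115 CPM at day 11, against 36.9 and 67.6 CPM at day 9. None of these genes passed the test.

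Genes of the matrix and of migration were higher in both replicates in 6 of 21 members, near the share of all genes (24.2%), and lower in 1 (25.2% of all genes). Of 9 nuclear and ribosomal RNAs tested 0 passed. In both replicates 4 were lower at day 11 and 1 higher, where 25.2% and 24.2% of all genes were. *Malat1* had 1074 and 4769 CPM at day 11, against 1601 and 7430 CPM at day 9. The ribosomal precursor *Rn45s*, read mainly in the libraries of replicate 1, had 132425 and 79.1 CPM, against 146009 and 104 CPM.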
